A study of Homo sapiens with 9 samples.

Results

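7SK RNA and the proteins that hold it and the positive transcription elongation factor b (P-TEFb) together were followed in the nuclei of U2OS cells, a human osteosarcoma line, after knockdown of dyskerin or of GAR1. The 8 genes were chosen by name: 7SK itself, LARP7, MEPCE, HEXIM1, HEXIM2, CDK9, CCNT1 and CCNT2, out of 58425 annotated genes. GENCODE gives the 7SK locus 2 entries, named 7SK and RN7SK, so that the 8 genes have 9 entries, and all 9 passed the filter on low counts. Cells were collected 48 h after transfection with 15 nM siRNA directed against the mRNA of dyskerin (siDyskerin), against that of GAR1 (siGAR1) or a control sequence (siControl), with 3 biological replicates of each and 9 libraries in all. The paper lists the control siRNA from Qiagen and those against dyskerin and GAR1 from Dharmacon. A change shared by both knockdowns therefore cannot be told apart from a difference between the reagents. Nuclear RNA depleted of ribosomal RNA was sequenced, and Salmon's estimated reads per transcript were summed over each gene. Dyskerin is the pseudouridine synthase of the H/ACA ribonucleoprotein and GAR1 is another of its core proteins, and the comparison asks whether loss of either changed the RNA level of this regulatory system.

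P-TEFb consists of the kinase CDK9 and cyclin T1 or T2, and it releases RNA polymerase II from promoter-proximal pausing by phosphorylating the polymerase, NELF and DSIF. A large share of nuclear P-TEFb is kept inactive in the 7SK small nuclear ribonucleoprotein, in which MEPCE caps the 5′ end of 7SK RNA, LARP7 binds its 3′ end, and a HEXIM dimer sits on the 5′ hairpin and inhibits CDK9. 7SK RNA is transcribed by RNA polymerase III and is a known substrate of dyskerin, since an H/ACA particle converts 1 uridine near its 3′ end into pseudouridine. RNA-seq of this kind reads the amount of 7SK RNA relative to other RNA and not its modification.

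The sequence of 7SK RNA is shown first because it decides which reads can be told apart from those of its copies. It lies on the plus strand of GRCh38 chromosome 6 from 52995620 to 52995950, is 331 bases long and is given here as in GENCODE 44, written with T for U. In bases 1 to 240 the capitals mark every GATC, which occurs 3 times (from bases 13, 42 and 64). HEXIM binds a GATC element of the 5′ hairpin, and the marking does not tell which of the 3 copies belong to it. GATC reads the same on both strands. Of 236083 annotated transcripts of at least this length, 60.4% had it in their first 331 bases, and 7.39% had it at least 3 times. In bases 241 to 331 the capital T marks the uridine known to be pseudouridylated. RN7SKP255 (chromosome 14, 89712511 to 89712823, plus strand) is the copy with the most reads, and capitals in its first 240 bases mark the 4 bases that differ from 7SK.
7SK bases 1 to 240: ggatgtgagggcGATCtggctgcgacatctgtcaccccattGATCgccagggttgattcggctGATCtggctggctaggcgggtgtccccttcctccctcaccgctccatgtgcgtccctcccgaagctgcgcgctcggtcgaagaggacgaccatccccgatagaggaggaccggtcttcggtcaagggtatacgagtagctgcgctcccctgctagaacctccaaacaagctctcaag
7SK bases 241 to 331: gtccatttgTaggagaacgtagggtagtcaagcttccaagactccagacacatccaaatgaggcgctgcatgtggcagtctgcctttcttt
RN7SKP255 bases 1 to 240: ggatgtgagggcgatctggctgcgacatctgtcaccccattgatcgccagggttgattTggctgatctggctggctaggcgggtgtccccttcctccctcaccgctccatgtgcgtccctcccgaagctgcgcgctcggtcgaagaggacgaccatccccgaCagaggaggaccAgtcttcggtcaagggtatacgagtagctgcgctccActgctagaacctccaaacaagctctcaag
RN7SKP255 bases 241 to 313: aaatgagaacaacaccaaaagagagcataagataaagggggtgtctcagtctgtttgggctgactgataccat
Aligned from the first base without gaps, RN7SKP255 was 98.3% identical to 7SK up to base 240, where the match ended ahead of the stretch with the pseudouridine. The RN7SK entry covers bases 2 to 329 of the same locus.

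The transcript counts of a library summed to 48838756 to 90698675, a total in which a read that fits several transcripts appears to be counted in each. DKC1, which encodes dyskerin, fell to 3099 ± 24.1 normalized counts in siDyskerin against 21477 ± 1076 in siControl (SD, n = 3 each, log2 fold change -2.79, edgeR adjusted p = 1.5e-11). GAR1 fell to 96.9 ± 15.9 normalized counts in siGAR1 against 619 ± 39.5 in siControl (SD, n = 3 each, log2 fold change -2.68, edgeR adjusted p = 6.1e-08). Of 10 mesenchymal and bone markers, 8 had a median of at least 1 TPM, among them VIM, SPARC and RUNX2, while TWIST1 and COL1A2 had a median of 0. Summed leukocyte markers reached 1.00 to 2.05 TPM, and 1 of the 5, CD68, had a median of at least 1 TPM.

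7SK was the most abundant transcript of all 9 libraries by TPM. The 7SK entry took 0.393, 0.426 and 0.481% of the summed transcript counts in siDyskerin, 0.399, 0.496 and 0.513% in siGAR1 and 0.409, 0.403 and 0.457% in siControl. Replicate 3, the smallest library of each group, had the highest share, and the part that depth or replicate number plays in this was not tested. After normalization the locus had 273040, 299130 and 332510 counts in siDyskerin, 283080, 353280 and 352590 in siGAR1, and 286280, 282820 and 317450 in siControl. Its mean was 301560 ± 29811 in siDyskerin, 329650 ± 40331 in siGAR1 and 295510 ± 19076 in siControl (SD, n = 3 each), and the groups overlapped in every comparison. The log2 fold change of 7SK was 0.03 for siDyskerin over siControl (95% interval -0.16 to 0.22, edgeR adjusted p = 0.89), so that a log2 fold change below -0.16 lay outside the interval. For siGAR1 over siControl it was 0.16 (-0.04 to 0.35, adjusted p = 0.31), and for siDyskerin over siGAR1 it was -0.13 (-0.32 to 0.06, adjusted p = 0.41). With 1 library left out the value ranged over 0.097 to 0.25 for siGAR1 over siControl and -0.23 to -0.056 for siDyskerin over siGAR1, with every adjusted p at 0.099 or above. All these values are relative to the other RNA of each library, so a change common to all nuclear RNA would not show. The paper states that it could not exclude a global fall in nuclear RNA after these depletions. In bulk nuclear RNA, less RNA per cell and fewer cells that make it cannot be told apart. The RN7SK entry held 97.8 to 98.2% of the reads of the 7SK entry, apparently the same reads counted again. Its log2 fold changes of 0.03, 0.16 and -0.13 are therefore not taken as a second measurement.

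Reads of 7SK copies elsewhere in the genome were few. Of 299 other annotated copies, 176 had no read in any library and 20 averaged at least 10 reads. Together the copies had 3.02 to 3.35% as many reads as the 7SK locus. RN7SKP255 made up most of this, with 7054, 8442 and 5714 reads in siDyskerin, 7995, 8363 and 6862 in siGAR1 and 9411, 8086 and 6268 in siControl. That is 2.39 to 2.63% of the reads of 7SK in every library, whichever siRNA was used. RN7SKP203 on chromosome 2 averaged 391 reads and RN7SKP176 on chromosome 16 averaged 323. Of the 264 stretches of 50 bases in RN7SKP255, 63 occur letter for letter in 7SK, as do 94 of 283 in RN7SKP203 and 41 of 269 in RN7SKP176. Whether the reads listed for these copies came from the chromosome 6 locus was not tested, and their counts are uncertain for that reason.

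LARP7, the La-related protein that protects the 3′ end of 7SK, showed the widest spread between replicates of the 8 genes, with a within-group coefficient of variation of 15.7%. It had 3057, 3848 and 3998 normalized counts in siDyskerin, 4452, 4457 and 4465 in siGAR1, and 2651, 4080 and 4149 in siControl (chromosome 4, 112637077 to 112657696). The first replicate stood low in siDyskerin and in siControl, while the siGAR1 libraries nearly coincided and lay above all others. The log2 fold change of LARP7 was 0.0041 for siDyskerin over siControl (-0.30 to 0.31, edgeR adjusted p = 0.99) and 0.30 for siGAR1 over siControl (-0.0059 to 0.61, adjusted p = 0.22). Without siControl replicate 1 these were -0.19 (adjusted p = 0.26) and 0.11 (adjusted p = 0.58). For siDyskerin over siGAR1 it was -0.30 (-0.60 to 0.01, adjusted p = 0.21).

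MEPCE, the methyltransferase that caps 7SK, had 2679, 2443 and 2185 normalized counts in siDyskerin, 2609, 2814 and 2594 in siGAR1, and 2938, 2637 and 2722 in siControl (chromosome 7, 100428322 to 100434126). All groups overlapped. Its log2 fold change for siDyskerin over siControl was -0.18 (-0.36 to -0.0060), which did not pass the correction over all genes (edgeR adjusted p = 0.18). For siGAR1 over siControl it was -0.05 (-0.23 to 0.13, adjusted p = 0.76), and for siDyskerin over siGAR1 it was -0.13 (-0.31 to 0.04, adjusted p = 0.35).

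HEXIM1, the main P-TEFb inhibitor, has a single transcript in the files (chromosome 17, 45148475 to 45152099). It had 766, 686 and 656 normalized counts in siDyskerin, 666, 703 and 678 in siGAR1, and 688, 624 and 646 in siControl. The 9 values lay close together and all groups overlapped. The log2 fold change of HEXIM1 was 0.11 for siDyskerin over siControl (-0.09 to 0.30, edgeR adjusted p = 0.51), 0.06 for siGAR1 over siControl (-0.13 to 0.26, adjusted p = 0.72) and 0.05 for siDyskerin over siGAR1 (-0.15 to 0.24, adjusted p = 0.81).

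HEXIM2, the second P-TEFb inhibitor and the neighbour of HEXIM1 on chromosome 17 (45160700 to 45170040), had the largest differences from siControl among the 8 genes and by far the lowest counts. It had 145, 125 and 136 normalized counts in siDyskerin, 129, 175 and 139 in siGAR1, and 224, 172 and 226 in siControl. All siDyskerin libraries lay below all siControl libraries, while 1 siGAR1 library, at 175, lay just above the lowest siControl library. HEXIM2 averaged 135 ± 10.1 in siDyskerin and 207 ± 30.5 in siControl (SD, n = 3 each), a log2 fold change of -0.61 (-0.96 to -0.27) with an edgeR adjusted p of 0.020, short of the 0.01 threshold. DESeq2 placed it past the threshold (log2 fold change -0.61, adjusted p = 0.0085), as did edgeR without the low-count filter (-0.62, adjusted p = 0.0040). In siGAR1 it averaged 148 ± 24.2, and the log2 fold change over siControl was -0.49 (-0.83 to -0.15, edgeR adjusted p = 0.072). The knockdowns did not differ detectably from each other in HEXIM2 (siDyskerin over siGAR1, log2 fold change -0.13, -0.48 to 0.23, adjusted p = 0.69). Its most-read transcript had only 19 to 60 reads a library, and the sum over its 8 transcripts appears to count a read once for each transcript it fits.

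CDK9, the kinase of P-TEFb, had 1179, 1127 and 1027 normalized counts in siDyskerin, 1390, 1280 and 1170 in siGAR1, and 1432, 1126 and 1265 in siControl (chromosome 9, 127785679 to 127790792). The siDyskerin libraries were the lowest on average, but the groups overlapped. The log2 fold change of CDK9 was -0.20 for siDyskerin over siControl (-0.41 to 0.02, edgeR adjusted p = 0.24), 0.0071 for siGAR1 over siControl (-0.21 to 0.22, adjusted p = 0.97) and -0.20 for siDyskerin over siGAR1 (-0.42 to 0.01, adjusted p = 0.23).

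CCNT1, which encodes cyclin T1, was the most even of the 8 genes, with a within-group coefficient of variation of 2.44%. It had 6436, 6554 and 6277 normalized counts in siDyskerin, 6697, 7094 and 6852 in siGAR1, and 6793, 6911 and 7090 in siControl (chromosome 12, 48688458 to 48716998). Every siDyskerin library lay below every other library. The differences were small, at -0.11 for siDyskerin over siControl on the log2 scale (-0.24 to 0.02, edgeR adjusted p = 0.26) and -0.10 for siDyskerin over siGAR1 (-0.22 to 0.03, adjusted p = 0.31). For siGAR1 over siControl CCNT1 had a log2 fold change of -0.01 (-0.14 to 0.11, adjusted p = 0.94).

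CCNT2, which encodes cyclin T2, was the 1 gene of the 8 that differed between the knockdowns at the threshold. It had 8231, 8108 and 8076 normalized counts in siDyskerin, 10281, 10190 and 10058 in siGAR1, and 8416, 9781 and 9855 in siControl (chromosome 2, 134918235 to 134959342). The siDyskerin libraries lay below and the siGAR1 libraries above all 3 siControl libraries, of which replicate 1 stood low. CCNT2 averaged 8138 ± 81.6 in siDyskerin and 10176 ± 112 in siGAR1 (SD, n = 3 each). That difference, a log2 fold change of -0.32 (-0.47 to -0.18), passed the threshold over all genes (edgeR adjusted p = 0.0066). Against siControl (9351 ± 810) the log2 fold change of CCNT2 was -0.20 in siDyskerin (-0.34 to -0.06, adjusted p = 0.065) and 0.12 in siGAR1 (-0.02 to 0.27, adjusted p = 0.29), so that neither knockdown alone differed from the control at the threshold. Without siControl replicate 1 the siDyskerin value was -0.28, with an adjusted p of 0.0071. The call between the knockdowns was kept in the fit of only these 2 groups. It was lost without most single libraries. Its edgeR adjusted p was 0.027, 0.029 and 0.037 without siDyskerin replicate 1, 2 or 3. It was 0.029, 0.022 and 0.012 without siGAR1 replicate 1, 2 or 3, and 0.011 without siControl replicate 2 or 3. Without siControl replicate 1 it was 0.0013. The log2 fold change itself stayed between -0.33 and -0.32 in the fits with 1 library left out.

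**Figure D1:**
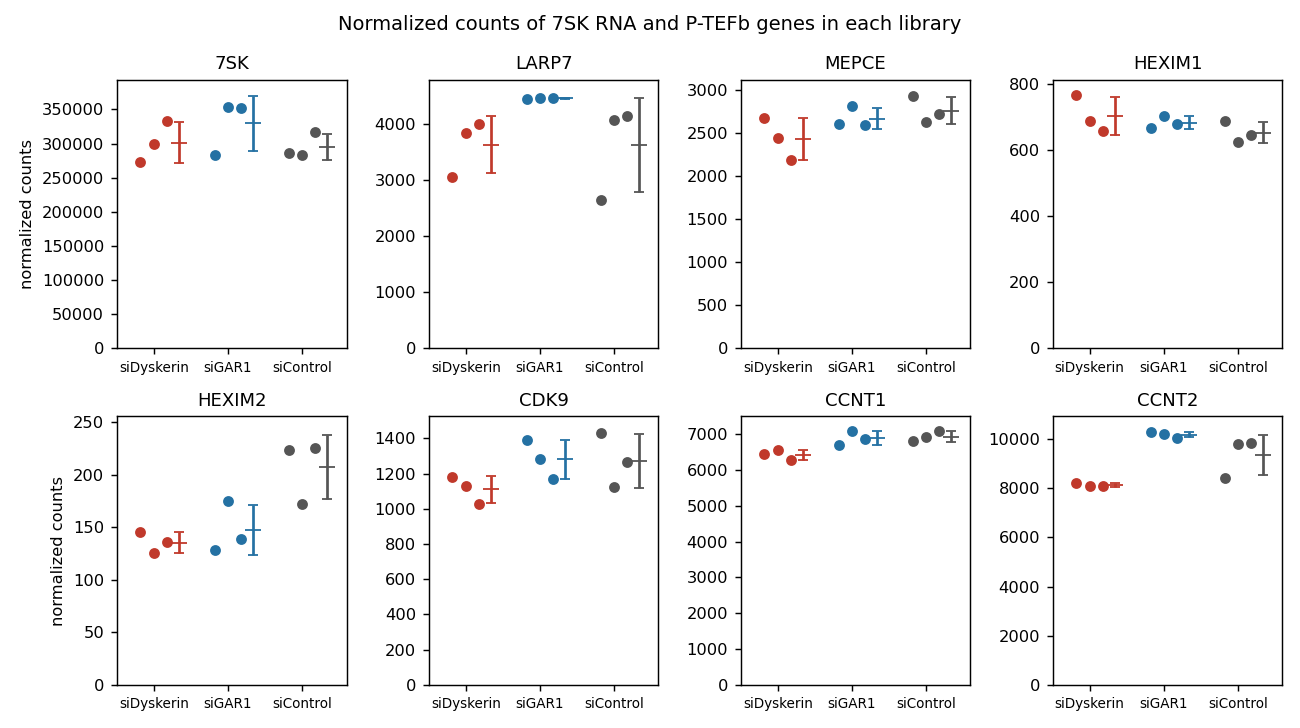
Normalized counts of the 8 genes on a linear axis from 0, with 1 point per library and the mean ± SD of 3 libraries beside each group. CCNT2 in siDyskerin (8076 to 8231) lies below siControl and siGAR1 (10058 to 10281) above it, and HEXIM2 is lower in siDyskerin (125 to 145) than in siControl (172 to 226).

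Across the 8 genes, 0 passed an edgeR adjusted p of 0.01 in siDyskerin over siControl, where 6.4% of the 18444 genes tested passed. At an unadjusted p under 0.05 there were 3 (HEXIM2, CCNT2 and MEPCE), against 26.1% of all genes, and DESeq2 called 1, HEXIM2. In siGAR1 over siControl 0 of 8 passed, against 3.42% of all genes, with 1 (HEXIM2) at an unadjusted p under 0.05, where 24.0% of all genes lay, and 0 by DESeq2. Between siDyskerin and siGAR1, 1 of 8 passed, CCNT2, against 5.39% of all genes, and the same gene passed by DESeq2. The stricter criterion, which also asks for a change of more than 1 log2 unit in either direction, was met by 0 of the 8 genes in each comparison. Of all genes 0.938, 0.282 and 0.721% met it in siDyskerin over siControl, siGAR1 over siControl and siDyskerin over siGAR1.

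Groups that did not overlap were found for 3 of the 8 genes in siDyskerin over siControl (HEXIM2, CCNT1 and CCNT2), against 31.4% of all genes. In siGAR1 over siControl there were 2 (LARP7 and CCNT2), against 27.7%, and between siDyskerin and siGAR1 there were 3 (LARP7, CCNT1 and CCNT2), against 29.8%. These shares lie near those of all genes. The median log2 fold change of the 8 genes was -0.15 in siDyskerin over siControl, 0.04 in siGAR1 over siControl and -0.13 in siDyskerin over siGAR1, with 0.0033, 0.0089 and -0.0035 over all genes. The median absolute log2 fold change was 0.15, 0.093 and 0.13 for the members and 0.17, 0.16 and 0.17 for all genes. Each pair of comparisons shares a group of libraries.

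**Figure D2:**
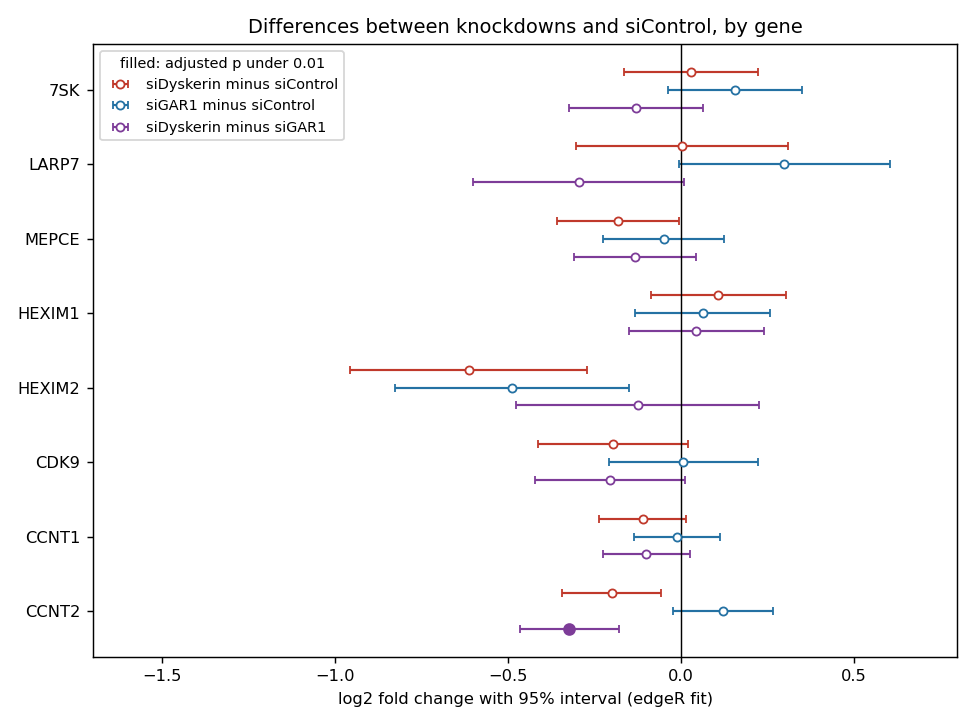
Log2 fold changes of the 8 genes with 95% intervals from the edgeR fit, for siDyskerin over siControl, siGAR1 over siControl and siDyskerin over siGAR1. The 7SK values lie at 0.03, 0.16 and -0.13, HEXIM2 has the widest intervals, and the 1 filled point is CCNT2 between the knockdowns at -0.32.

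Levels between genes were compared per length, as the TPM of the transcript with the most reads. 7SK had 28206 to 36526 TPM over the 9 libraries, with a median of 30485. The protein-coding members all lay far below it, at 7.70 TPM or less for their most-read transcripts. MEPCE had a median of 6.97 TPM (5.93 to 7.70), CCNT2 6.85 TPM (5.52 to 6.997) and CCNT1 6.43 TPM (5.95 to 6.72), and these neighbours overlapped. LARP7 followed with 5.08 TPM (3.42 to 5.502) and CDK9 with 4.19 TPM (3.72 to 4.87), which overlapped each other but not CCNT1. HEXIM1 had 2.93 TPM (2.75 to 3.50), below every CDK9 value. HEXIM2 had 0.323 TPM (0.252 to 0.468), below every HEXIM1 value. Of the cyclins, CCNT1 and CCNT2 could not be ordered by these ranges, whereas HEXIM1 exceeded HEXIM2 in all 9 libraries. The order of the genes depends on the transcript chosen. Another protein-coding transcript of CCNT2 had 7.22 to 9.13 TPM, above every value given here for CCNT1.

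**Figure D3:**
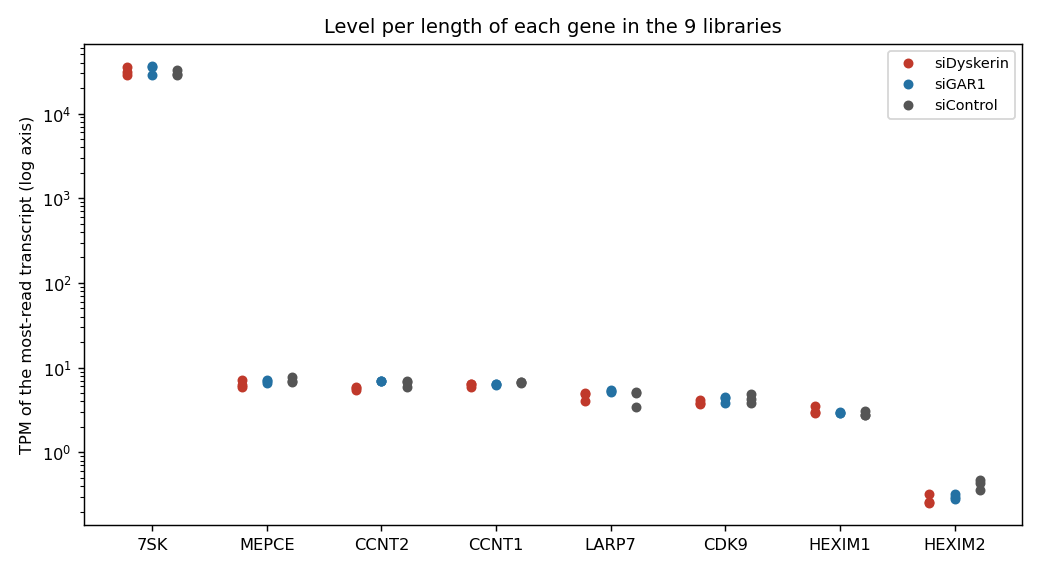
TPM of the most-read transcript of each gene on a log axis, with 1 point per library, ordered by the median over the 9 libraries. 7SK stands at 28206 to 36526 TPM, the protein-coding genes at 0.252 to 7.70 TPM, and HEXIM2 is lowest.

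The mix of transcripts was tested apart from the sum for the 6 members with at least 2 transcripts past the filter (LARP7 with 14, CCNT2 with 10, HEXIM2 with 7, CDK9 and CCNT1 with 5 each and MEPCE with 4). In edgeR's test of transcript usage 0 of these 6 shifted in any of the 3 comparisons, with every adjusted p at 1 and 0 genes at an unadjusted p under 0.05, and no other tool was run. Among all 12644 genes tested, 0.174% shifted in siDyskerin over siControl, 0.166% in siGAR1 over siControl and 0.206% between siDyskerin and siGAR1. Transcripts that overlap appear to carry the same reads in these counts. Their proportions could then hardly move, and the test says little about these genes.

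The genes whose pattern over the 9 libraries was most like that of 7SK (Pearson's r of log2 CPM, over 12020 genes) were RN7SKP255 (r = 0.96), RN7SKP176 (0.92), ENSG00000279133 (0.91), COX11 (0.91) and PTPRE (0.90). RN7SKP255 and RN7SKP176 share stretches of sequence with 7SK. For HEXIM1 they were TEAD4 (0.93), FAM131A (0.92), TFE3 (0.92), RBM15B (0.92) and VPS37C (0.92). All r values rest on the same 9 libraries and their normalization, so they are a description only. With counts scaled from TPM and length, 3 of the 5 genes remained for 7SK and 1 of 5, FAM131A, for HEXIM1, a check that was added after the data had been seen.

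Around P-TEFb, genes of the same pathway were followed in lists. Counts of list genes at an unadjusted p under 0.05 stand beside 26.1% of all genes in siDyskerin over siControl and 24.0% in siGAR1 over siControl. Calls by edgeR at an adjusted p under 0.01 stand beside 6.4% and 3.42% of all genes, and beside 5.39% between siDyskerin and siGAR1. Of 12 factors that release P-TEFb from 7SK or recruit it, PPM1A rose in both knockdowns. PPM1A, a phosphatase reported to act on P-TEFb, had 7902, 7650 and 7469 normalized counts in siDyskerin, 7549, 7488 and 6913 in siGAR1, and 5282, 5559 and 5274 in siControl, with no overlap. Its log2 fold change was 0.51 in siDyskerin (edgeR adjusted p = 9.8e-05) and 0.45 in siGAR1 (adjusted p = 0.00065). The other 11, with JMJD6, PPM1G and SRSF2 among them, did not pass in either knockdown by edgeR, and DESeq2 also called PPM1G in siDyskerin. The median log2 fold change of the list was -0.02 in siDyskerin and 0.07 in siGAR1, and 4 of the 12 had an unadjusted p under 0.05 in each knockdown. Of 4 hnRNPs that bind 7SK once P-TEFb has left, HNRNPR rose in siDyskerin (49273 ± 974 normalized counts against 41348 ± 1763 in siControl, SD, n = 3 each, log2 fold change 0.25, adjusted p = 0.0066) and HNRNPA1, HNRNPA2B1 and SYNCRIP did not pass. That call was lost when any 1 library other than siGAR1 replicate 3 was left out (adjusted p = 0.013 to 0.046) and when only the most-read transcript was counted (adjusted p = 0.022). In siGAR1 0 of the 4 passed by edgeR or DESeq2, with 3 at an unadjusted p under 0.05 (24.0% of all genes), and in siDyskerin 1 of the 4 had such a p.

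The super elongation complex carries active P-TEFb to genes. Of its 8 tested subunits and partners, AFF4, the scaffold, rose in both knockdowns. DESeq2 also called MLLT3 in siDyskerin over siControl (edgeR log2 fold change 0.35, adjusted p = 0.016) and EAF2 between the knockdowns (edgeR log2 fold change 0.62, adjusted p = 0.011). AFF4 had 14544, 14949 and 14874 normalized counts in siDyskerin, 14232, 14270 and 13964 in siGAR1, and 10506, 10737 and 11007 in siControl. Its log2 fold change was 0.46 in siDyskerin (edgeR adjusted p = 7.6e-05) and 0.40 in siGAR1 (adjusted p = 0.00057). ELL2, an elongation factor of the complex, fell in siDyskerin and differed between the knockdowns. It had 924, 1060 and 994 normalized counts in siDyskerin, 2015, 2173 and 1918 in siGAR1, and 1531, 1777 and 1708 in siControl. Its log2 fold change was -0.75 in siDyskerin over siControl (adjusted p = 6.9e-05), 0.29 in siGAR1 over siControl (adjusted p = 0.052) and -1.04 in siDyskerin over siGAR1 (adjusted p = 5.9e-06). ELL differed between the knockdowns, with 575 ± 36.9 normalized counts in siDyskerin and 783 ± 73.5 in siGAR1 (log2 fold change -0.44, adjusted p = 0.0076), a call that held only without siGAR1 replicate 3 or siControl replicate 1 when 1 library was left out and otherwise reached an adjusted p of up to 0.040. EAF2, an ELL partner, was lower in siGAR1 at 89.3 ± 2.33 normalized counts against 150 ± 9.37 in siControl (log2 fold change -0.75, adjusted p = 0.0046). Without siGAR1 replicate 1 or 2 or any 1 siControl library its adjusted p was 0.013 to 0.021. The median log2 fold change of the list was 0.09 in siDyskerin and 0.10 in siGAR1, and 4 of the 8 had an unadjusted p under 0.05 in each knockdown.

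NELF and DSIF hold the paused polymerase and are substrates of P-TEFb. Of their 6 subunits, 2 fell in siDyskerin by edgeR, SUPT4H1 and NELFB, and DESeq2 also called NELFE (edgeR log2 fold change -0.28, adjusted p = 0.024). SUPT4H1, a DSIF subunit, had 5225, 5512 and 5182 normalized counts in siDyskerin, 7152, 8247 and 7027 in siGAR1, and 7561, 7286 and 6842 in siControl. Its log2 fold change was -0.45 in siDyskerin over siControl (edgeR adjusted p = 0.0010) and -0.49 in siDyskerin over siGAR1 (adjusted p = 0.00068). NELFB fell to 800 ± 28.5 normalized counts in siDyskerin against 1054 ± 57.3 in siControl (SD, n = 3 each, log2 fold change -0.40, adjusted p = 0.0043). That call was lost without siDyskerin replicate 2 or 3 or siControl replicate 1 or 3, at an adjusted p of 0.015 to 0.021, and with counts rebuilt from TPM and length (adjusted p = 0.011). An unadjusted p under 0.05 was found for 4 of the 6 in siDyskerin, against 26.1% of all genes. These 4 did not all fall. In siDyskerin 2 of the 6 had a log2 fold change above 0: NELFCD, among those 4, at 0.14 and SUPT5H at 0.02. In siGAR1 0 of 6 passed by edgeR or DESeq2, and 0 had an unadjusted p under 0.05. The median log2 fold change of the list was -0.17 in siDyskerin and 0.03 in siGAR1.

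Of 10 genes for the PAF1 complex and other elongation factors, 0 passed in either knockdown by edgeR or DESeq2, with 0 in siDyskerin and 2 in siGAR1 at an unadjusted p under 0.05, and the smallest p belonged to LEO1 (log2 fold change 0.40 in siGAR1, edgeR adjusted p = 0.075). Of 11 genes for the other transcription kinases and their cyclins, 0 passed by edgeR, with 3 in each knockdown at an unadjusted p under 0.05, a share near that of all genes. DESeq2 called MED13 in siDyskerin and CCNC and MED13 in siGAR1, and CCNC had the smallest edgeR p (log2 fold change 0.36 in siGAR1, adjusted p = 0.013). Among 6 other La and LARP proteins 0 passed by edgeR or DESeq2 and 0 had an unadjusted p under 0.05, with LARP1 at a log2 fold change of 0.17 in siGAR1 (adjusted p = 0.27).

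SNAPc and its partners drive the RNA polymerase III promoter type that 7SK uses. Of 10 such factors SNAPC1 fell in siDyskerin, with 2936, 2990 and 3075 normalized counts, against 3426, 4182 and 4273 in siControl (log2 fold change -0.40, edgeR adjusted p = 0.0052). Without any 1 siDyskerin library, or without siControl replicate 2 or 3, its adjusted p was 0.017 to 0.030. An unadjusted p under 0.05 was found for 1 of the 10 in siDyskerin. In siGAR1 0 of the 10 passed by edgeR, with 2 at an unadjusted p under 0.05 and 1, POU2F1, by DESeq2. Of 18 other RNA polymerase III transcripts listed, 7 passed the filter on low counts, and 0 of these 7 passed the test in either knockdown by edgeR. In siDyskerin 0 had an unadjusted p under 0.05 and 0 passed by DESeq2, and in siGAR1 there were 2 and 1 (RPPH1). RPPH1, the RNA of RNase P, had a log2 fold change of -0.19 in siDyskerin (adjusted p = 0.23) and -0.36 in siGAR1 (adjusted p = 0.037). Of the 7, RN7SL1, RN7SL2 and RMRP had log2 fold changes of -0.05, 0.01 and -0.11 in siDyskerin, beside 0.03 for 7SK. RNY1, RNY3 and RNU6ATAC, with few reads, stood at -0.19, -1.02 and -0.11, so that 1 of the 7 was above 0.

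Immediate early genes, whose induction depends on pause release, were the next list. Of 12, 0 passed in siDyskerin by edgeR or DESeq2, with 4 at an unadjusted p under 0.05 (26.1% of all genes). In siGAR1 DESeq2 called JUND and FOSL1, and by edgeR JUND fell to 474 ± 18.4 normalized counts against 680 ± 19.1 in siControl (SD, n = 3 each, log2 fold change -0.52, edgeR adjusted p = 0.0044), but its adjusted p was 0.011 to 0.020 without any 1 siGAR1 or siControl library. FOSL1 differed between the knockdowns, with 4742, 3968 and 4250 normalized counts in siDyskerin and 5644, 5952 and 5184 in siGAR1 (log2 fold change -0.37, adjusted p = 0.0068), and its adjusted p was 0.012 to 0.040 without siDyskerin replicate 2 or 3, siGAR1 replicate 1 or 2 or siControl replicate 3. The median log2 fold change of the list was 0.08 in siDyskerin and 0.12 in siGAR1, with 7 and 8 of the 12 genes above 0. Values in siDyskerin went both ways, none past the test. FOS, JUN and EGR1 stood at 0.13, 0.12 and 0.48, and FOSB, DUSP1, ATF3 and JUND at -0.60, -0.29, -0.26 and -0.21.

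Markers of other cell types were read beside these values. Of 8 epithelial markers 7 were tested, and KRT8 rose in siDyskerin (50891 ± 1939 normalized counts against 36546 ± 2789 in siControl, log2 fold change 0.48, edgeR adjusted p = 0.00018). By edgeR 0 of the 7 passed in siGAR1, and 6 of the 7 had a log2 fold change above 0 in each knockdown. DESeq2 called KRT8 and KRT18 in siDyskerin, KRT18 in siGAR1 and KRT8 between the knockdowns. The summed epithelial markers were 754 to 796 TPM in siDyskerin, 618 to 764 TPM in siGAR1 and 509 to 568 TPM in siControl, nearly all of it KRT8 and KRT18, while EPCAM and CDH1 had a median of 1.92 and 1.51 TPM. Of 8 mesenchymal markers tested, 5 had a log2 fold change above 0 in siGAR1 (median 0.13), and DESeq2 called CDH2 (edgeR log2 fold change 0.21, adjusted p = 0.038) and FN1. FN1 was lower in siGAR1 (log2 fold change -0.30, adjusted p = 0.0083), with an adjusted p of 0.011 to 0.041 without siDyskerin replicate 3, siGAR1 replicate 1 or 2 or any 1 siControl library. Among leukocyte markers CD68 had a median of 1.17 TPM (0.890 to 1.59) and CD3E was at 0 in every library. PTPRC, with a median of 0.118 TPM, had a log2 fold change of 0.95 in siGAR1 (edgeR adjusted p = 0.20). The part of these markers in the values of CCNT2 and HEXIM2 was not tested.

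**Figure D4:**
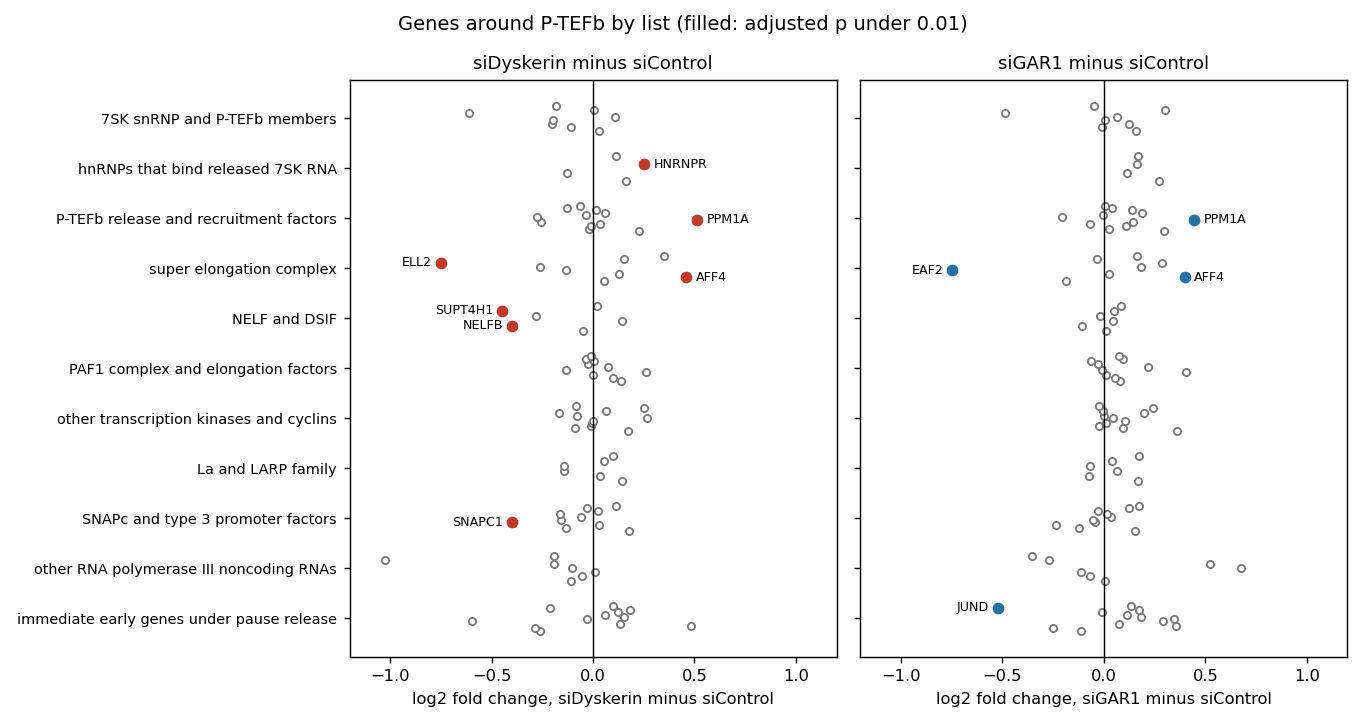
Log2 fold changes of the tested genes of each list (1 point per gene, in alphabetical order from bottom to top within a list) for siDyskerin over siControl on the left and siGAR1 over siControl on the right. Filled points passed an edgeR adjusted p of 0.01. PPM1A and AFF4 are higher in both panels, and HNRNPR (0.25) is higher on the left. ELL2 (-0.75), SUPT4H1 (-0.45), NELFB and SNAPC1 are lower on the left. EAF2 (-0.75) and JUND are lower on the right, and no 7SK or P-TEFb gene is filled.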

How the data were processed

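Nuclear RNA of 9 U2OS libraries was depleted of ribosomal RNA, made into CORALL total RNA libraries and sequenced as paired ends. The authors trimmed reads with Trim Galore 0.6.4, removed rRNA and tRNA reads with Bowtie2 2.4.1 and quantified transcripts of GENCODE 27 (GRCh38) with Salmon 1.2.0. The expected counts and the TPM values were deposited by the authors as 1 table per library, beside transcript lengths. A read that fits several transcripts appears to be counted in each. This was inferred from the counts, as the RN7SK entry held 97.8 to 98.2% as many reads as the 7SK entry it overlaps. The paper does not describe such counting. If so, a gene's sum grows with its annotation.

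Here 195887 of 200401 transcripts were matched to 58425 genes of GENCODE 44, and unmatched transcripts held 3.69 to 3.84% of the summed counts. Summed counts were rounded, filtered with filterByExpr (18444 genes), scaled by TMM (factors 0.982 to 1.02) and tested with edgeR 4.0.16 (robust quasi-likelihood, R 4.3.3, limma 3.58.1) over all 9 libraries without covariates. Benjamini-Hochberg adjusted p-values run over all genes tested, with calls under 0.01. Normalized counts refer to a library of average size, errors show the SD of 3 libraries, and intervals are 95% from the fit. The replicates' origin beyond the methods' word "biological" is not given, so p-values measure the spread between these samples. The common biological coefficient of variation was 0.0886, and summed transcript counts were 48838756 to 90698675 a library. Transcript usage was tested with diffSpliceDGE.

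The 8 genes, the lists and the rule for named genes (every member, the targeted genes, up to 4 genes per list that passed in a knockdown or else the smallest p, the 5 most alike genes, 3 copies of 7SK) were chosen with earlier results of these data known. Genes named beyond that rule, such as ELL, FOSL1, FOS, JUN, EGR1, FOSB, DUSP1, ATF3, RN7SL1, RN7SL2, RMRP, RNY1, RNY3, RNU6ATAC, KRT18 and CD68, were added after their values were seen. Alternatives were DESeq2 1.42.0, size factors by relative log expression, a fit that keeps all genes, counts rebuilt from TPM and length, the most-read transcript, only the 2 groups compared, the replicate number as a block, and each library left out. The test was checked on simulated data. Tables were handled in Python 3.11.15 (pandas 2.3.3, numpy 2.4.6) and plots drawn with matplotlib 3.10.9.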

Additional observations from a re-analysis of the deposited data

Results flagged for a closer look

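The effects of the knockdowns differed from each other by the direct contrast of siDyskerin and siGAR1 in 1 member. CCNT2 had a log2 fold change of -0.32 for siDyskerin over siGAR1 (edgeR adjusted p = 0.0066), with all 3 siDyskerin libraries below all 3 siGAR1 libraries, but the call was lost when any 1 library other than siControl replicate 1 was left out. Of the genes around P-TEFb, ELL2 (-1.04, adjusted p = 5.9e-06), SUPT4H1 (-0.49, adjusted p = 0.00068), ELL (-0.44, adjusted p = 0.0076) and FOSL1 (-0.37, adjusted p = 0.0068) were lower in siDyskerin than in siGAR1. The targeted genes differed by construction, with DKC1 at -2.99 and GAR1 at 2.89 on the same log2 scale.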

How the results depend on the processing

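Of 384 log2 fold changes of the 8 genes under alternatives, 351 kept direction and side of the threshold, 22 reversed, 8 lost a call (CCNT2 between the knockdowns) and 3 gained one (HEXIM2 under DESeq2 and without the filter, and CCNT2 without siControl replicate 1, in siDyskerin over siControl). The number passing in siDyskerin over siControl, 0, became 1 with DESeq2, 1 without the low-count filter, and 0 to 1 with 1 library left out. In siDyskerin over siGAR1 it was 0 to 1 with 1 library left out. The remaining settings left the number passing as it was, and 0 genes shifted transcript usage in each. Deviations of libraries with the same replicate number were weakly correlated (-0.072 to 0.104), beside -0.101 to 0.062 for different numbers. Such values over all genes cannot tell whether the libraries were prepared in pairs. With a replicate block CCNT2 kept its call between the knockdowns (-0.32, edgeR adjusted p = 0.0072) and HEXIM2 stood at -0.61 in siDyskerin (adjusted p = 0.029), and the numbers passing stayed at 0, 0 and 1.

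In siDyskerin over siControl LARP7 was -0.0018 without the filter, -0.044 with counts from TPM and length and -0.0065 with the most-read transcript, and CDK9 in siGAR1 over siControl was -0.0091 without the filter and -0.017 with the most-read transcript. PTPRC, with few reads, was -0.67 in siDyskerin and -0.17 in siGAR1 with counts from TPM and length. With 1 library left out, siDyskerin over siControl gave -0.057 to 0.090 for 7SK, -0.057 to 0.090 for RN7SK, -0.19 to 0.11 for LARP7, -0.017 to 0.85 for PTPRC and -0.11 to 0.020 for FOSL1. In siGAR1 over siControl the ranges were -0.084 to 0.097 for CDK9, -0.041 to 0.0010 for CCNT1, -0.036 to 0.083 for SUPT4H1 and -0.15 to 0.0021 for SNAPC1. In siDyskerin over siGAR1 they were -0.016 to 0.091 for HEXIM1, -0.22 to 0.015 for HEXIM2, -0.23 to 0.031 for LEO1 and -0.12 to 0.036 for LARP1. Beyond the members, edgeR calls were lost with counts from TPM and length for EAF2 (adjusted p = 0.010), JUND (0.035), FN1 (0.011) and ELL (0.025), with the most-read transcript for EAF2 (0.020), and in fits of only the 2 groups for EAF2 (0.013), FN1 (0.018), ELL (0.015) and FOSL1 (0.011). The cause was not tested. HEXIM2 rested on the fewest counts of the 8 genes, 96 to 290 a library summed over its transcripts.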
